A study of Homo sapiens with 16 samples.

Results

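H/ACA and Cajal body small RNAs were measured in melanoma tumors as the rows of the deposited expression table whose symbol starts with SNORA or SCARNA. There were 129 such rows among 23260 gene symbols, 105 of them SNORA and 24 SCARNA. H/ACA small nucleolar RNAs fold into hairpins, pair with a target RNA and guide the conversion of a uridine to pseudouridine, mostly in ribosomal RNA. They end in an ACA trinucleotide, carry an H box between their hairpins and are held by dyskerin (DKC1), NHP2, NOP10 and GAR1. Small Cajal body RNAs (SCARNA) guide the same reaction, or ribose methylation, in spliceosomal RNAs, and most RNAs of both kinds are cut from the introns of host genes.

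The tumors were grown from A375, a human melanoma cell line with mutant BRAF, on both flanks of NOG mice, an immunodeficient NOD/Scid strain without the IL2 receptor gamma chain. The groups received JQ1, an inhibitor of BET bromodomain proteins, with the BRAF inhibitor Vemurafenib (J+V), JQ1 alone at 50 mg/kg (J), Vemurafenib alone at 25 mg/kg per dose (V), or vehicle (control), and tumors were taken on day 5. Each group had 4 tumors from 2 mice, named by the mouse number and the flank (L or R), so that tumors of a pair share a host. Ribosomal RNA was removed from total RNA before sequencing, and levels are FPKM, fragments scaled to transcript length and to the mapped fragments of a library. The p values measure the spread between tumors of 1 cell line, 2 to a mouse. In bulk tumors, fewer cells with an RNA and less of it per cell cannot be told apart.

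Of the A375 lineage markers, SOX10 (8.95 to 20.9 FPKM), MITF and S100B were present in every tumor, whereas the pigment gene DCT was listed at 0 throughout and TYR and PMEL reached at most 0.305 and 0.216 FPKM. The summed level of the 8 lineage markers was 713 to 918 FPKM in J+V, 1085 to 1191 in J, 756 to 947 in V and 919 to 1098 in control tumors, and most of it was the intermediate filament gene VIM. Of the 5 tested, S100B (log2 fold change 1.68) and MLANA (0.55) were called higher by limma in J+V against control and VIM lower (-0.45), and MLANA was not called without control tumor 5L. The summed level of 8 stromal and host markers was 76.3 to 105 FPKM in J+V, 72.3 to 81.8 in J, 69.3 to 106 in V and 51.1 to 108 in control tumors. Of the 5 stromal markers tested, the collagen-binding proteoglycan LUM (log2 fold change 1.61) and the smooth muscle actin ACTA2 (0.44) were higher in J+V than in control tumors, ACTA2 only with control tumor 5L, while the endothelial marker PECAM1 reached at most 0.523 and the leukocyte marker PTPRC 0.456 FPKM. The hosts were mice, whereas reads were mapped to the human genome hg19, and the handling of mouse reads is unknown. The stromal and host marker values therefore do not measure host content, and the low PECAM1 and PTPRC do not show that host vessels or leukocytes were few. Whether LUM and ACTA2 came from A375 or mouse cells was not tested. The part of the markers in the results was not tested.

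The sequences of some members called in J+V against control are given here, from the reference genome GRCh37 (the same assembly as hg19) at the positions of GENCODE. Capitals mark the first match to the H box motif ANANNA between positions 50 and 85 and the ACA in the last 8 bases, both searched on the RNA's own strand. SNORA62 lies at chr3:39452545-39452697 (+) in an intron of RPSA and SNORA14B at chr1:235291118-235291252 (-) in an intron of TOMM20. SNORA30 lies at chr16:30721858-30721986 (+) in an intron of SRCAP. SNORA7A, at chr3:12881811-12881949 (-), overlaps an exon of RPL32, and SNORA7B lies at chr3:129116053-129116191 (-) in no host gene of the table.
SNORA62: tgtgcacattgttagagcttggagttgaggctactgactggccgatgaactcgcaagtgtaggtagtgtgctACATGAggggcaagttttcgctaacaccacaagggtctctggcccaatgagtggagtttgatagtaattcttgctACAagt
SNORA14B: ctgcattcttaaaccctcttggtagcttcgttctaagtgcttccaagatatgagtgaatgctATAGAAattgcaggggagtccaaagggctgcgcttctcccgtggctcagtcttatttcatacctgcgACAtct
SNORA30: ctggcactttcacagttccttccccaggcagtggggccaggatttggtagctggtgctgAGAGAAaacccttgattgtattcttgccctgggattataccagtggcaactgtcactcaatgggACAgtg
SNORA7A: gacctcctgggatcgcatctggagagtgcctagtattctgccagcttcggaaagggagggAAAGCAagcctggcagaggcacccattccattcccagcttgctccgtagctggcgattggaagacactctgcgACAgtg
SNORA7B: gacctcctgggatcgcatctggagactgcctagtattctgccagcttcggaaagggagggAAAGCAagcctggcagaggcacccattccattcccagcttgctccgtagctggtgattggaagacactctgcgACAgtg

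Of the 129 members, 105 were matched to 1 position, and these spanned 121 to 701 bases with a median of 135. An ACA stood in the last 8 bases of 91 of the 105 (86.7%), against 9.5% of windows of the same length just downstream. The motif ANANNA occurred between positions 50 and 85 in 94 (89.5%), against 25.7% of the downstream windows. SNORA7A and SNORA7B shared 137 of 139 bases (98.6%), SNORA14A and SNORA14B 91.1%, and SNORA30 and SNORA37 86.2% of aligned positions. The sources used here do not give how the authors assigned reads that match both copies, so the values of each such pair are uncertain.

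The members ranged from rows listed at 0 to some of the highest levels of the table. In total, 37 had a mean of at least 1000 FPKM over the 16 tumors, 50 a mean of 100 to 1000, and 42 a mean below 100. SNORA49, from an intron of the chromatin remodeler gene EP400, was the most abundant with a mean of 20032 FPKM and 13.3% of the members' sum. It was followed by SNORA22 (mean 9329 FPKM), SNORA18 (6930), SNORA7A (5769), SNORA31 (5581), SNORA61 (5153), SCARNA8 (4591), SNORA8 (4552), SNORA24 (4454) and SNORA70 (4038). These 10 made up 46.7% of the members' sum. Among the SCARNA, SCARNA8 was followed by SCARNA4 (3607 FPKM), SCARNA21 (3112), SCARNA16 (1452) and SCARNA10 (1294). SCARNA10, also known as U85, carries both kinds of guide.

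The members' share of the FPKM sum did not separate the groups. It was 13.7, 12.98, 11.8 and 12.3% in J+V tumors, 12.6, 10.8, 10.8 and 10.97% in J tumors, 14.4, 13.2, 11.6 and 12.3% in V tumors, and 13.3, 10.9, 9.30 and 14.6% in control tumors. The control tumors alone, with 5L lowest and 5R of the same mouse highest, spanned the range of the other groups. The mean share was 12.7% ± 0.81 in J+V, 11.3% ± 0.90 in J, 12.9% ± 1.21 in V and 12.03% ± 2.38 in control tumors (SD, n = 4 each). The difference of J+V from control was 0.66 percentage points (exact permutation test, two-sided, p = 0.657), that of J -0.74 (p = 0.543) and that of V 0.85 (p = 0.629). J+V exceeded J by 1.41 percentage points (exact p = 0.0857) and differed from V by -0.19 (exact p = 0.8), and no adjusted p over the 5 comparisons was below 0.429. Tumors that share a mouse entered this test as separate values, and 0.0286 is the smallest p it can give with 4 tumors against 4.

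SNORA made up 10.8% ± 0.78 of the FPKM sum in J+V and 10.1% ± 2.02 in control tumors, and SCARNA 1.91% ± 0.07 in J+V and 1.95% ± 0.36 in control tumors (SD, n = 4 each). Across the 16 tumors the SNORA and SCARNA shares moved together (Pearson r = 0.873, Spearman rho = 0.9), as shares of the same sum in the same libraries. The members' share had little relation to that of the SNORD symbols, which are C/D box small nucleolar RNAs (r = 0.041, rho = -0.024). SNORD took 40.7% ± 2.69 of the sum in J+V, 39.9% ± 1.67 in J, 34.1% ± 5.57 in V and 32.9% ± 3.14 in control tumors (SD, n = 4 each). Since that share enters every percentage, the members' share of the sum without SNORD was 21.5% ± 1.99 in J+V, 18.8% ± 1.37 in J, 19.6% ± 1.89 in V and 18.1% ± 4.25 in control tumors. On this base the differences of J from control and of J+V from V had the opposite sign, 0.72 (exact p = 0.743) and 1.87 percentage points (exact p = 0.286).

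**Figure D1:**
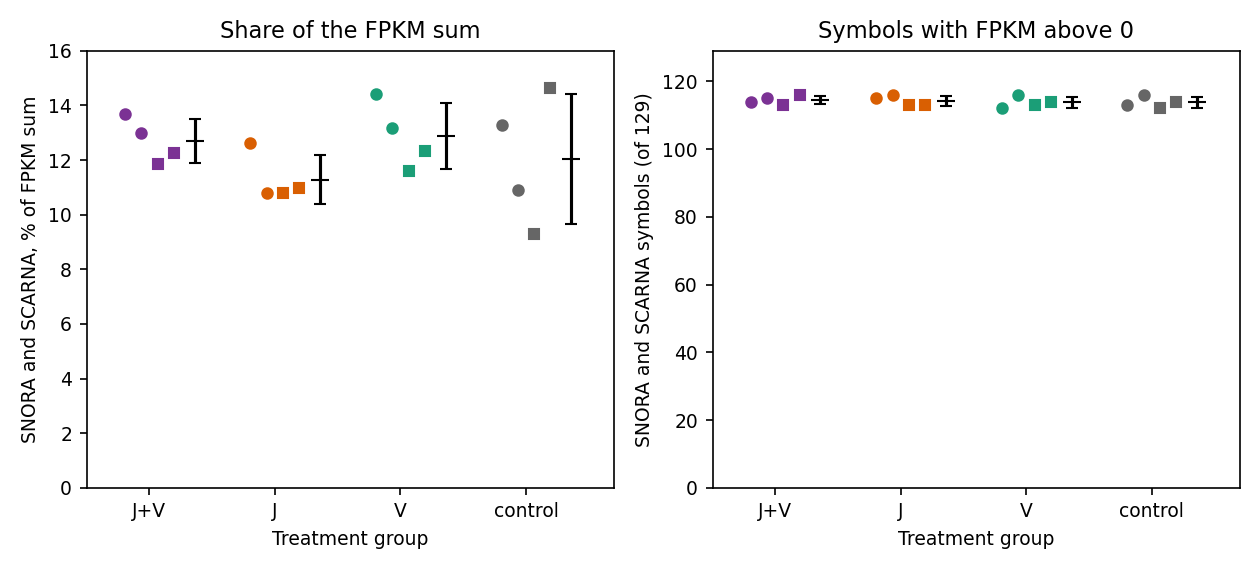
Share of the FPKM sum in percent (left) and number of the 129 members with FPKM above 0 (right) in each tumor, by treatment group. Circles and squares are tumors of the first and second mouse of a group, and black bars are means ± SD of 4 tumors. The control tumors spread from 9.30 to 14.6% and enclose all others, and every tumor had between 112 and 116 members above 0.

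Detection was nearly the same in all tumors. The members above 0 FPKM numbered 114, 115, 113 and 116 in J+V tumors, 115, 116, 113 and 113 in J tumors, 112, 116, 113 and 114 in V tumors, and 113, 116, 112 and 114 in control tumors. The mean was 114.5 ± 1.29 in J+V, 114.25 ± 1.5 in J, 113.75 ± 1.71 in V and 113.75 ± 1.71 in control tumors (SD, n = 4 each). J+V exceeded control by 0.75 members (exact permutation test, two-sided, p = 0.657), with p of at least 0.657 in each of the other 4 comparisons. A minimum of 1 FPKM gave the same numbers, since no member had a value between 0 and 1. Altogether 100 members were above 0 in all 16 tumors, 23 in some, and 6 were listed at 0 in all.

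The values of short genes were noisy, and the noise depended on the level. A transcript as short as these reaches a high FPKM from few fragments, and the number of fragments is unknown here. In the 23 members that were at 0 in some tumors, the lowest value above 0 ranged from 8.66 to 37.1 FPKM (median 12.2). SNORA36C, for example, was at 0 in 9 tumors and had 19.0, 19.6, 22.7, 23.1, 39.4, 49.7 and 77.9 FPKM in the others, 4 of which lay close together at the low end. The coefficient of variation over the 16 tumors had a median of 111% in these 23 members, against 28.6% in the 100 members above 0 throughout. After the group means were removed, the median SD on the log2 scale was 1.54 in 30 members with a mean of 10 to 100 FPKM, against 0.16 in 5508 other genes at that level. It was 0.42 in 50 members against 0.17 in 588 other genes from 100 to 1000 FPKM, and 0.36 in 37 members against 0.19 in 68 other genes above that. A difference that would have been clear in a messenger RNA was therefore within the error of many members, and tests on them were less sensitive.

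One control tumor stood apart. Of the 100 members above 0 throughout, 53 had their lowest value of all 16 tumors in control tumor 5L, where their median lay 0.60 below the members' means on the log2 scale. In 5R, from the other flank of the same mouse, the median lay 0.32 above, and 18 members had their highest value. In the J+V tumors the same median was 0.32 in 33L, 0.24 in 33R, 0.05 in 34L and 0.04 in 34R. The FPKM of all symbols summed to 970443 in 5L, against 1033865 to 1406986 in the other 15 tumors.

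Against this spread, 119 members passed the filter of at least 1 FPKM in at least 4 tumors, 95 SNORA and all 24 SCARNA. The 10 left out were SNORA11C, SNORA11E, SNORA35, SNORA59A, SNORA59B, SNORA70C, SNORA70D, SNORA70E, SNORA70F and SNORA78, of which 4 had a value above 0 in any tumor. The 119 were tested on log2(FPKM + 0.5) with limma in a fit over 13426 symbols and all groups, with the mouse as a block, and those with a Benjamini-Hochberg adjusted p below 0.05 over all symbols are called. Fold changes are on this scale, which understates the change of genes with low values above 0. In members at 0 in some tumors the size of the change depends on the pseudocount.

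In J+V against control tumors, 22 of the 119 members were called (18.5%), 19 higher (16.0%) and 3 lower (2.52%). Over all 13426 symbols 37.1% were called, 16.6% higher and 20.5% lower. The members' share of higher calls was thus near the background, and their share of lower calls was under it. The median log2 fold change was 0.20 in the members and -0.03 over all symbols, and 80 of the 119 members were above 0 (67.2%). The median standard error was 0.27 in the members and 0.13 over all symbols. The SNORD gave 27 calls of 141 (19.1%), a median of 0.56 and a median standard error of 0.66. The block correlation was negative (-0.067), so the mouse block made this test less strict than a fit without it. Without the block 15 members were called, 12 higher and 3 lower, and 4598 of all symbols against 4979 with it. On the mean of each mouse's tumors 23 members were called, 19 higher and 4 lower, and 3801 of all symbols. Without control tumor 5L, 8 members were called (6.72%), 4 higher and 4 lower, and 3474 of all symbols. Without J+V tumor 33L or 33R the members called numbered 14 each (11.8%), with 4260 and 4128 of all symbols. Without both, 6 members (5.04%) and 2843 of all symbols were called. The members called numbered 12 without both tumors of control mouse 5, 14 without both of J mouse 26 and 13 without both of J mouse 29. In these 3 fits 4561, 4329 and 4341 of all symbols were called. With every tumor scaled to a common sum (TPM), 17 members were called, 10 higher and 7 lower. Of all symbols 820 were higher and 4726 lower with this scaling, as their median moved to -0.22 and that of the members to -0.02.

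SNORA68 and SNORA62 were the clearest of the higher members. SNORA68, a guide for the RNA of the large ribosomal subunit, had 3688, 4003, 2950 and 2422 FPKM in J+V tumors, 2787, 2419, 2370 and 2910 in J tumors, 1909, 2139, 1557 and 2750 in V tumors, and 2123, 1264, 1321 and 1855 in control tumors. The lowest J+V tumor lay above the highest control tumor, the J tumors lay above all control tumors as well, and the V tumors overlapped them. The log2 fold change of J+V over control was 1.0 ± 0.20 (SE), with limma adjusted p = 0.00177. SNORA62, also known as E2 and a guide for the same rRNA, had 2794, 3371, 2999 and 2763 FPKM in J+V tumors, 1941, 1879, 2047 and 2442 in J tumors, 2381, 2237, 1867 and 3469 in V tumors, and 1764, 1180, 1053 and 2285 in control tumors. All J+V tumors exceeded all control tumors, and the control tumor nearest to them was 5R. The log2 fold change was 0.99 ± 0.22 (SE, limma adjusted p = 0.00282).

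SNORA14B, from an intron of the mitochondrial import receptor gene TOMM20, had 1158, 1435, 1200 and 1253 FPKM in J+V tumors, 1263, 802, 943 and 1243 in J tumors, 532, 932, 780 and 1139 in V tumors, and 659, 883, 578 and 703 in control tumors. The J+V tumors did not overlap the control tumors, and the V tumors did. Its log2 fold change was 0.85 ± 0.20 (SE, limma adjusted p = 0.00465). Its near copy SNORA14A was sparse, with 14.8, 60.8, 93.2 and 28.4 FPKM in J+V tumors and 0, 22.8, 13.3 and 0 in control tumors (limma adjusted p = 0.0384). SNORA14A lost its call in 14 of 37 alternatives, whereas SNORA14B kept it in all.

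SNORA30 was the clearest of the lower members. It had 70.8, 30.2, 66.9 and 71.2 FPKM in J+V tumors, 103, 96.6, 146 and 102 in J tumors, 124, 88.0, 118 and 67.0 in V tumors, and 214, 174, 132 and 109 in control tumors. Every J+V tumor lay below every control and every J tumor, and V tumor 19R lay within the J+V range. SNORA30 fell by 1.42 ± 0.27 on the log2 scale in J+V against control (SE, limma adjusted p = 0.00124) and by 0.96 ± 0.27 against J (limma adjusted p = 0.0189). SNORA37, its near copy, had 99.4, 91.5, 57.6 and 89.2 FPKM in J+V tumors and 97.4, 113, 75.1 and 102 in control tumors, which overlapped (log2 fold change -0.21 ± 0.25, limma adjusted p = 0.521). SNORA37 was chosen after its values were seen.

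SNORA16B was listed at 0 in all 4 control tumors. It had 34.7, 12.3, 12.1 and 44.6 FPKM in J+V tumors, 9.58, 20.2, 0 and 0 in J tumors, and 0, 22.5, 37.5 and 9.20 in V tumors. Apart from 44.6 FPKM in J+V and 37.5 in V, the values above 0 lie within the range of the lowest values above 0 in sparse members (8.66 to 37.1 FPKM). No fold is given against a group at 0. The call in J+V against control (limma adjusted p = 0.00396) was among the 5 that held in all 37 alternatives, with SNORA14B, SNORA30, SNORA62 and SNORA68.

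**Figure D2:**
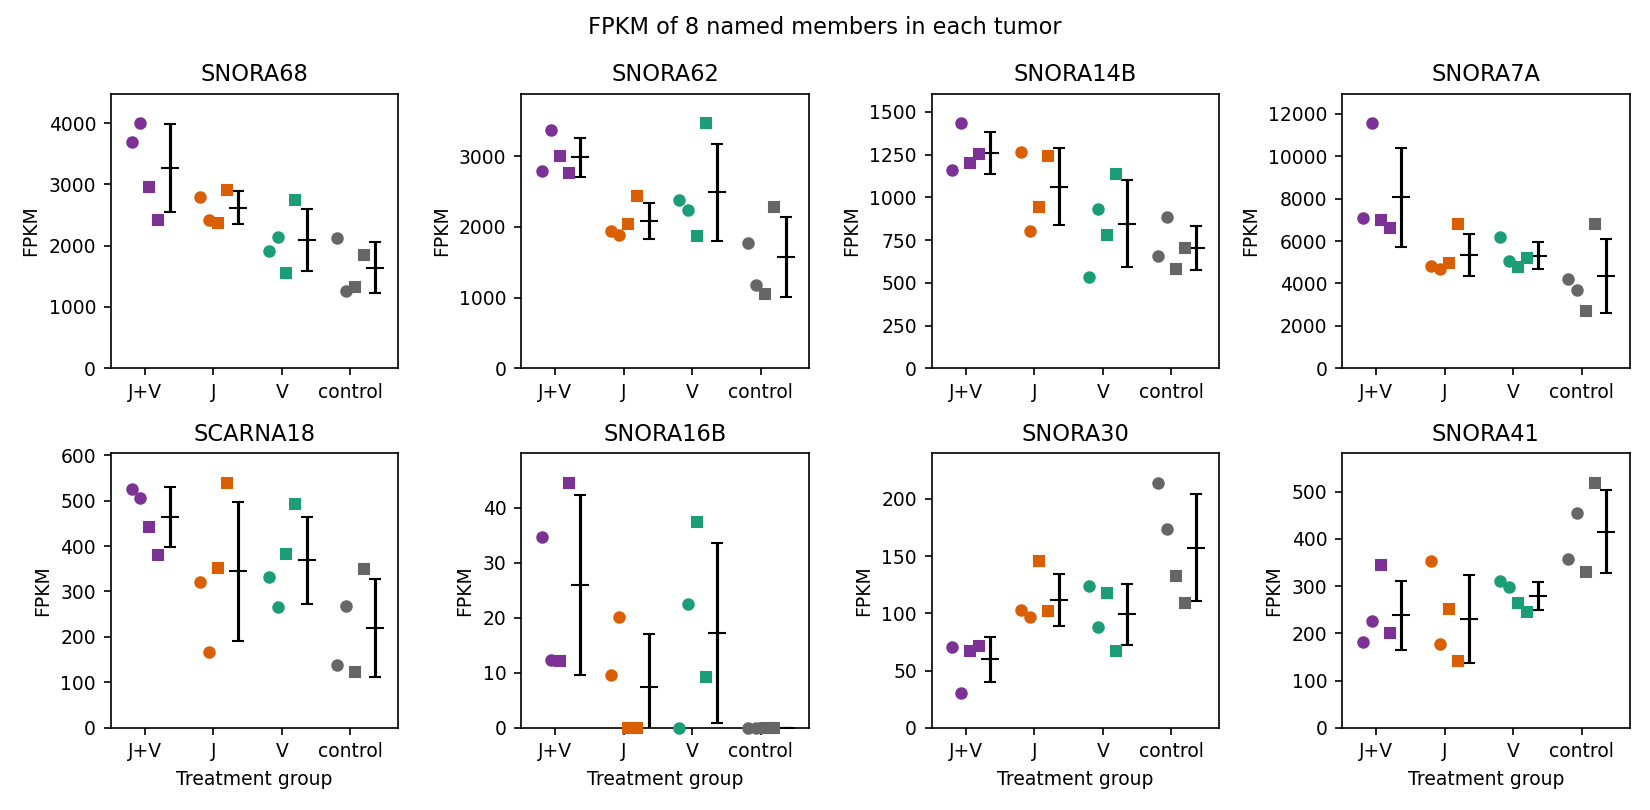
FPKM of 8 members in each tumor, by treatment group, with a separate axis from 0 for each. Circles and squares are tumors of the first and second mouse of a group, and black bars are means ± SD of 4 tumors. The J+V tumors of SNORA68, SNORA62, SNORA14B and SCARNA18 lie above, and those of SNORA30 below, all control tumors, and SNORA16B is at 0 in every control tumor.

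The other SNORA called higher in J+V against control were less stable. SNORA7A, a further guide for the large ribosomal subunit, had 7080, 11578, 7008 and 6616 FPKM in J+V tumors, 4841, 4702, 4991 and 6798 in J tumors, 6214, 5047, 4796 and 5201 in V tumors, and 4195, 3696, 2720 and 6820 in control tumors. The J+V tumors overlapped control tumor 5R, and the log2 fold change was 0.93 ± 0.24 (SE, limma adjusted p = 0.00849). SNORA7B had 761, 1020, 821 and 817 FPKM in J+V tumors and 435, 443, 374 and 854 in control tumors, at a lower level and again with tumor 33R highest. Its log2 fold change was 0.77 ± 0.22 (SE, limma adjusted p = 0.0139), and since it differs from SNORA7A at 2 of 139 bases the calls may not be separate. Both calls were lost without control tumor 5L and without both tumors of mouse 33, and that of SNORA7B also without both tumors of mouse 2.

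SNORA64, SNORA31, SNORA81, SNORA44, SNORA71B, SNORA43 and SNORA1 had log2 fold changes of 0.46 to 0.78, with limma adjusted p of 0.0293 to 0.0496. SNORA1 was the only one of these 7 whose J+V tumors (516, 596, 588 and 485 FPKM) did not overlap the control tumors (399, 376, 405 and 406 FPKM). All 7 calls were lost without control tumor 5L and without both tumors of mouse 33, and each in 10 to 25 of the 37 alternatives. SNORA47 was sparse in control tumors, with 20.8, 46.9, 35.2 and 74.6 FPKM in J+V tumors and 26.4, 23.5, 0 and 8.71 in control tumors, and was highest in V tumors (62.9, 82.3, 105 and 85 FPKM). Its limma adjusted p was 0.0417 in J+V and 0.144 in V against control, and the call in J+V was lost in 20 of the 37 alternatives, among them a pseudocount of 0.1, a fit on mouse means and the fit without 5L.

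SNORA41, from an intron of the elongation factor gene EEF1B2, had 181, 226, 344 and 201 FPKM in J+V tumors, 353, 177, 252 and 141 in J tumors, 310, 299, 265 and 246 in V tumors, and 357, 455, 331 and 520 in control tumors. J+V tumor 34L lay within the control range, and the rest lay below it. SNORA41 fell by 0.82 ± 0.24 on the log2 scale (SE, limma adjusted p = 0.0155), and the call was lost without both tumors of mouse 33 or of mouse 5.

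Of the 24 SCARNA, 4 were higher (16.7%, against 16.6% of all symbols) and 1 lower (4.17%, against 20.5%) in J+V against control, so that the share of higher calls was at the background. SCARNA18, from an intron of TMEM167A, had 526, 506, 442 and 380 FPKM in J+V tumors, 320, 166, 351 and 540 in J tumors, 333, 267, 382 and 492 in V tumors, and 139, 269, 123 and 349 in control tumors. The J+V tumors lay above the control tumors by a narrow gap, and the log2 fold change was 1.20 ± 0.34 (SE, limma adjusted p = 0.0124). SCARNA15 had 551, 343, 408 and 721 FPKM in J+V tumors and 322, 315, 154 and 280 in control tumors (0.92 ± 0.33, SE, limma adjusted p = 0.0414), a call that was lost in 15 of the 37 alternatives, among them no mouse block and the mean of each mouse's tumors. SCARNA9, a guide for ribose methylation of the U2 spliceosomal RNA, had 364, 325, 322 and 273 FPKM in J+V tumors and 273, 217, 185 and 262 in control tumors (0.46 ± 0.14, SE, limma adjusted p = 0.0155). SCARNA17 had 21.4, 20.7, 20.1 and 13.6 FPKM in J+V tumors and 12.2, 16.8, 10.2 and 14.6 in control tumors (0.48 ± 0.15, SE, limma adjusted p = 0.0237). The groups overlapped in SCARNA17, touched in SCARNA9 and were apart in SCARNA15, and without control tumor 5L none of the 4 was called.

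SCARNA9L, named for its likeness to SCARNA9, went the other way, with 43.7, 31.2, 52.8 and 39.8 FPKM in J+V tumors, 56.5, 45.9, 51.7 and 59.1 in J tumors, 64.2, 63.4, 36.3 and 52.0 in V tumors, and 65.8, 66.9, 57.5 and 65.9 in control tumors. Every J+V tumor lay below every control tumor, and SCARNA9L fell by 0.63 ± 0.17 on the log2 scale (SE, limma adjusted p = 0.00898). The call was lost in 1 of 37 alternatives, the fit without both tumors of mouse 33. The most abundant SCARNA, SCARNA8, overlapped between groups, with 5661, 4806, 3896 and 3735 FPKM in J+V tumors and 6587, 3916, 2122 and 5159 in control tumors (0.12 ± 0.30, SE, limma adjusted p = 0.773).

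The tumors of J+V and control did not overlap in 10 of the 119 members (8.4%), 8 higher and 2 lower, against 29.3% of all 13426 symbols. They were SNORA68, SNORA62, SNORA14B, SNORA16B, SNORA1, SNORA12, SCARNA15, SCARNA18, SNORA30 and SCARNA9L, and all had a mean of at least 5 FPKM. SNORA12 was not called, with 381, 415, 385 and 321 FPKM in J+V tumors and 171, 283, 211 and 309 in control tumors, and 110 to 443 FPKM in J tumors (limma adjusted p = 0.139). SNORA65 (0.19 ± 0.26) and SNORA74A (-0.09 ± 0.27) were not called either (SE, limma adjusted p = 0.597 and 0.813). SNORA73A and SNORA73B, which encode the U17 RNA, were not analysed here.

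**Figure D3:**
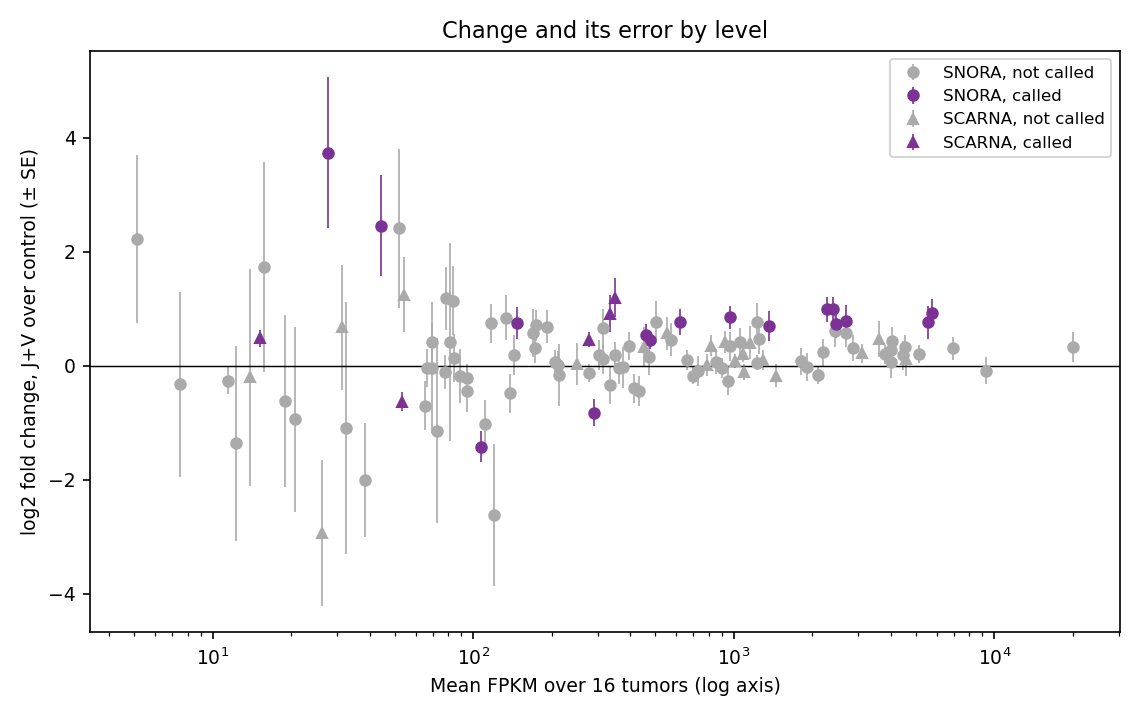
log2 fold change of J+V over control (± SE) against the mean FPKM over 16 tumors on a log axis, for 118 tested members. Circles are SNORA, triangles SCARNA, and members called at an adjusted p below 0.05 are purple. SNORA16B is left out because it is at 0 in control tumors. The errors are wide below 100 FPKM, where the 2 largest fold changes of called members are 3.74 (SNORA14A) and 2.46 (SNORA47), and above 1000 FPKM every called member is higher in J+V. Each of these 2 has a control tumor at 0, so the size depends on the pseudocount. Over the 37 alternatives it was 1.63 to 4.90 in SNORA14A and 0.67 to 4.24 in SNORA47.

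Against control, neither drug alone gave a call among the members. None of the 119 was called in J tumors and none in V tumors by limma, as of all 13426 symbols (0% in each). The 0 depended on single tumors. Without control tumor 5R, 423 symbols, 2 of them members, were called in V and 101, with 0 members, in J. Without V tumor 19R, 177 symbols and 0 members were called in V. At an unadjusted p below 0.05 there were 12 members in J (10.1%, against 8.49% of all symbols) and 11 in V (9.24%, against 16.1%). The median log2 fold change of the members was 0.05 in J and 0.12 in V against control. SNORA68 had 0.71 ± 0.20 in J and 0.35 ± 0.20 in V (SE, limma adjusted p = 0.316 and 0.418). SNORA62 had 0.47 ± 0.22 in J and 0.70 ± 0.22 in V (adjusted p = 0.583 and 0.170). SNORA30 had -0.47 ± 0.27 in J and -0.66 ± 0.27 in V (adjusted p = 0.703 and 0.261), and SNORA41 had -0.91 ± 0.24 in J and -0.55 ± 0.24 in V (adjusted p = 0.279 and 0.281). SNORA47 in V (3.49 ± 0.89) had the lowest adjusted p of the named members in that comparison, 0.144.

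In the main fit no member departed significantly in J+V from the J and V effects added together. By limma 0 of 119 were called, as of all 13426 symbols (0%), with 6 members at an unadjusted p below 0.05 (5.04%, against 12.6% of all symbols). This 0 also depended on the tumors used. Without J+V tumor 34L, 127 symbols and 1 member were called, and 363 symbols and 1 member without both tumors of mouse 34. For the 4 stable members with values in control tumors the departure was -0.06 ± 0.29 in SNORA68, -0.17 ± 0.31 in SNORA62, 0.04 ± 0.29 in SNORA14B and -0.30 ± 0.39 in SNORA30 on the log2 scale (SE, limma adjusted p of 0.788 to 0.968). The error of this contrast had a median of 0.38 in the members, so that departures of that size could not be told from 0.

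**Figure D4:**
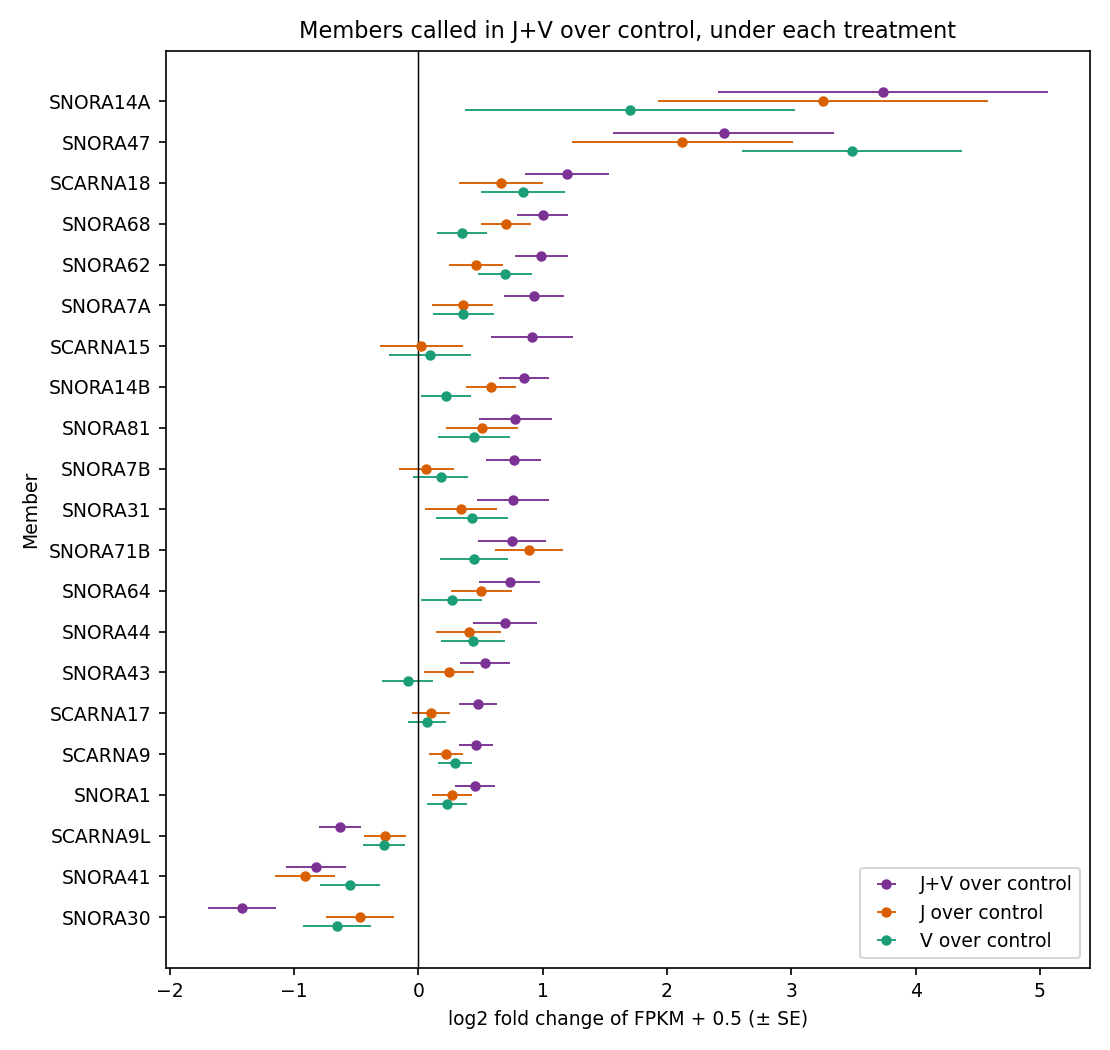
log2 fold change (± SE, on log2 of FPKM + 0.5) over control in J+V, J and V tumors for 21 of the 22 members called in J+V against control. SNORA16B is left out because it is at 0 in control tumors. The 3 lower members are below 0 under each treatment, SNORA68 is at 1.0 in J+V, 0.71 in J and 0.35 in V, and no value of J or V alone passed the threshold.

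In J+V against J tumors, 6 of the 119 members were called (5.04%), against 27% of all symbols. They were 4 higher (3.36%, against 8.67%) and 2 lower (1.68%, against 18.4%). Of the 24 SCARNA 4 were called (16.7%), 3 higher (12.5%) and 1 lower (4.17%), and of the 95 SNORA 2 (2.11%). The share of calls was thus under the background in SCARNA as well. SCARNA21, from an intron of the chromatin remodeler gene CHD3, had 4054, 3362, 3723 and 3434 FPKM in J+V tumors and 2895, 2519, 2573 and 2074 in J tumors (0.54 ± 0.17, SE, limma adjusted p = 0.0274). SCARNA5, from an intron of the autophagy gene ATG16L1, had 1119, 1212, 1019 and 1197 FPKM in J+V tumors and 741, 716, 784 and 737 in J tumors (0.61 ± 0.19, adjusted p = 0.0300). SCARNA13, which overlaps an exon of the noncoding gene SNHG10, had 1049, 983, 976 and 959 FPKM in J+V tumors and 742, 652, 643 and 652 in J tumors (0.56 ± 0.18, adjusted p = 0.0332). None of the 3 overlapped between J+V and J tumors, and control tumor 5R lay within the J+V range in SCARNA5 (1178 FPKM) and above it in SCARNA21 (4675) and SCARNA13 (1265). SCARNA21, SCARNA5 and SCARNA13 had limma adjusted p of 0.312, 0.0962 and 0.138 in J+V against control.

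SNORA7B was the other member higher in J+V than in J tumors, with 761, 1020, 821 and 817 FPKM in J+V tumors and 468, 484, 428 and 762 in J tumors (0.70 ± 0.22, SE, limma adjusted p = 0.0289). SNORA30, given above, and SCARNA27 were lower. SCARNA27 was sparse, with 0, 0, 13.8 and 0 FPKM in J+V tumors, 46.0, 11.9, 87.0 and 10.96 in J tumors, 33.8, 12.7, 41.6 and 51.1 in V tumors, and 12.2, 10.3, 0 and 87.8 in control tumors (limma adjusted p = 0.0171 against J and 0.0250 against V). The number of calls in J+V against J was 0 without J tumor 29L, 1 without control tumor 5L, 3 without J tumor 26R or J+V tumor 33L, and 0 without both tumors of mouse 33. It was 2 and 1 without both tumors of J mice 26 and 29, 9 without control tumor 2L or 2R, 11 without 5R, 10 and 14 without both tumors of control mice 2 and 5, 9 without both tumors of V mouse 16, and 17 with only these groups in the fit. Of all symbols 3628 were called in the main fit, 2484 without J tumor 29L, 2171 without control tumor 5L and 1423 without both tumors of mouse 33. With only these groups in the fit 4632 were called, and 4382 without both tumors of control mouse 5.

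In J+V against V tumors, 3 of the 119 members were called (2.52%), against 13.3% of all symbols. SNORA68 was higher (0.84% of the members, against 4.99% of all symbols), and SNORA58 and SCARNA27 were lower (1.68%, against 8.31%). SNORA68 had a log2 fold change of 0.65 ± 0.20 (SE, limma adjusted p = 0.0480), a call that was lost in 21 of the 37 alternatives. SNORA58 had 9.92, 9.81, 5.88 and 6.54 FPKM in J+V tumors, 12.5, 11.9, 16.9 and 24.3 in V tumors and 12.99, 8.77, 8.28 and 8.60 in control tumors. SNORA58 fell by 0.96 ± 0.23 on the log2 scale (SE, limma adjusted p = 0.0161), and J+V and V tumors did not overlap. The number of calls was 1 without J+V tumor 33R, without control tumor 5L, or without both tumors of mouse 19 or 33. It was 5 to 7 without control tumor 2L, 2R or 5R or without both tumors of control mouse 2 or 5, with 2203 to 2431 of all symbols. Of all symbols 1786 were called in the main fit, 1034 without J+V tumor 33R and 683 without control tumor 5L. Without both tumors of mouse 19 or 33, 415 and 330 were called.

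Since most members are cut from the introns of other genes, their levels were compared with those of their hosts. In GENCODE, 87 of the 105 placed members lay in 1 host gene of the table, 79 in an intron and 8 over an exon, in 70 hosts, and TAF1D held 6 of them. Both were tested for 78 members in 61 hosts, in J+V against control, and the fold changes had little relation (Pearson r = 0.129, Spearman rho = 0.212, over members that share hosts, libraries and controls). The median log2 fold change was 0.20 in the members and -0.18 in the hosts. Of the 78 members 13 were called, and their hosts were called for 31, 8 higher and 23 lower. A host of several members enters these counts and the host median once for each, so they do not compare directly with shares of distinct symbols. Over all symbols 37.1% were called, 16.6% higher and 20.5% lower. Both were called in 7 pairs, 5 with the same sign and 2 with opposite signs. Whether 7 is more than the overlap that 13 and 31 calls would give without a relation was not tested. Without control tumor 5L, 6 members were called, and both in 3 pairs, 2 with the same sign and 1 with opposite signs.

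SNORA14A and its host had opposite signs, and SNORA14A was not called without 5L. POR, the host and the electron donor of cytochrome P450 enzymes, fell by 0.51 ± 0.14 on the log2 scale (SE, limma adjusted p = 0.0109), and SNORA14A was higher. RPSA, a protein of the small ribosomal subunit and host of SNORA62, overlapped between the groups, with 842, 928, 982 and 1140 FPKM in J+V tumors and 746, 1110, 1030 and 1310 in control tumors (-0.09 ± 0.17, adjusted p = 0.701). TOMM20, host of SNORA14B, had 0.13 ± 0.07 (adjusted p = 0.195).

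In the 5 pairs with the same sign, both fell or both were higher, and without 5L the pairs of SNORA30 and SNORA16B were left. SRCAP, a chromatin remodeler and host of SNORA30, was lower by a smaller factor than SNORA30 (-0.34 ± 0.12, SE, limma adjusted p = 0.0432). TMEM167A, host of SCARNA18 (0.52 ± 0.08, adjusted p = 0.000408), the translation factor EIF4A2, host of SNORA81 (0.66 ± 0.12, adjusted p = 0.000682), TPT1, host of SNORA31 (0.61 ± 0.14, adjusted p = 0.00431), and the phosphatase subunit PPP2R5A, host of SNORA16B (0.25 ± 0.08, adjusted p = 0.0296), were higher with their members. SNORA31 overlaps an exon of TPT1, so that reads of TPT1, at 2867 to 3422 FPKM in J+V tumors, cannot be told apart from those of the small RNA there. The same limit holds for the other members over a host exon, among them SNORA7A in RPL32 and SCARNA13 in SNHG10.

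Members hosted by ribosomal protein genes, a group formed after the values were seen, had a median log2 fold change of 0.42 in J+V against control (15 members in 12 hosts, 4 called), and their hosts one of 0.03. The 63 other hosted members had a median of 0.19 with 9 called, and their 49 hosts one of -0.23. Over all symbols 37.1% were called. Without control tumor 5L the medians were 0.08 and -0.05, with 2 and 4 called. The 6 members from TAF1D, a factor of RNA polymerase I transcription, had 0.10 to 0.46, and TAF1D itself 0.31 ± 0.12 (SE, limma adjusted p = 0.0573). Of the 6, SNORA1 was called, and the abundant SNORA18 (0.31 ± 0.20) and SNORA8 (0.32 ± 0.21) were not.

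**Figure D5:**
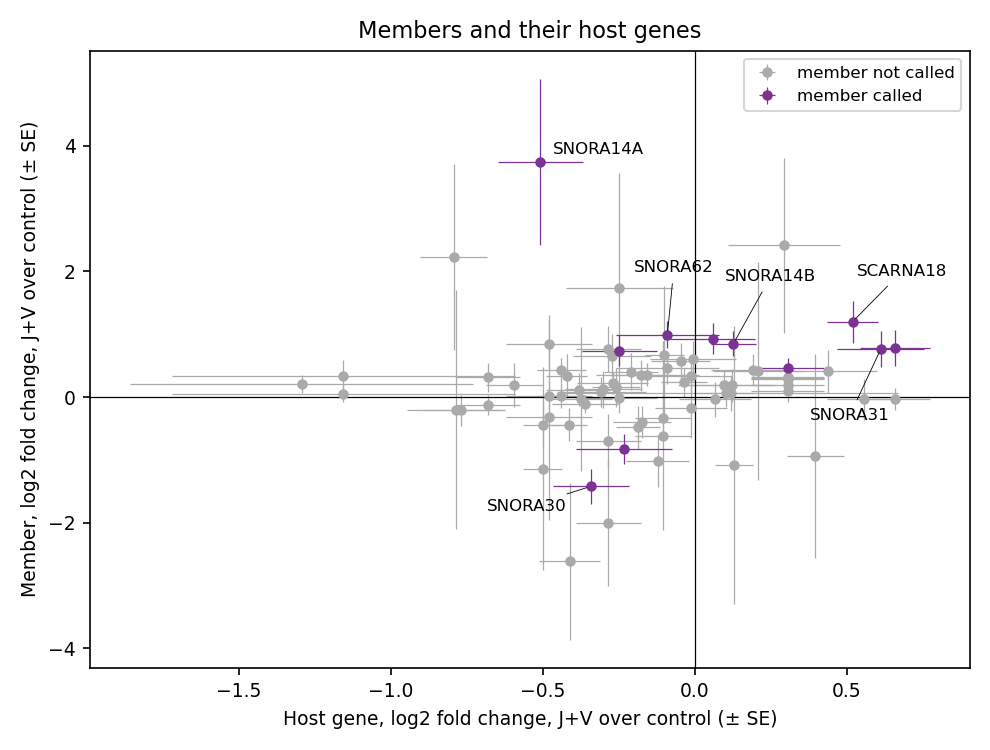
log2 fold change of J+V over control in members against that of their host genes (± SE on both axes), for 76 members with 1 tested host. Members called at an adjusted p below 0.05 are purple, SNORA16B is left out because it is at 0 in control tumors, and SNORA68 is left out as well. SNORA30 lies at -1.42 with its host SRCAP at -0.34.

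The messenger RNAs of proteins that hold and assemble these RNAs were tested in the same fit. Of the 4 H/ACA core proteins, 3 fell and none rose in J+V against control, with or without control tumor 5L, with a median log2 fold change of -0.49 against -0.03 over all symbols, where 20.5% were lower. DKC1, the pseudouridine synthase, had 52.4, 49.3, 50.8 and 54.8 FPKM in J+V tumors, 64.5, 65.4, 71.1 and 66.9 in J tumors, 58.5, 51.6, 53.5 and 60.2 in V tumors, and 69.6, 79.2, 76.0 and 69.6 in control tumors. The J+V tumors lay below all J and control tumors and overlapped the V tumors, and DKC1 fell by 0.50 ± 0.07 on the log2 scale (SE, limma adjusted p = 9.53e-05). NOP10 fell by 0.59 ± 0.11 (adjusted p = 0.000981) and NHP2 by 0.47 ± 0.13 (adjusted p = 0.0110), and GAR1 had -0.21 ± 0.17 (adjusted p = 0.346).

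Of 5 tested H/ACA assembly factors 4 fell, with a median of -0.39, and 3 without control tumor 5L, while SHQ1 had -0.13 (limma adjusted p = 0.229). The ATPases RUVBL1 and RUVBL2, which act in snoRNP assembly, fell by 0.91 ± 0.14 and 0.55 ± 0.11, and the assembly factor NAF1 fell by 0.39 ± 0.11 (SE, limma adjusted p = 0.000265, 0.00184 and 0.0132). Of all 13426 symbols 2756 were lower (20.5%), and 1953 without control tumor 5L. Of 16 genes of the Cajal body and scaRNA transport 6 fell and none rose, and 2 fell without control tumor 5L. The 6 included WRAP53, which brings scaRNAs to Cajal bodies (-0.61 ± 0.13, adjusted p = 0.00213), and COIL, the marker protein of these bodies (-0.22 ± 0.08, adjusted p = 0.0482, not called without 5L). Of 7 genes of 3′ end processing 4 fell, and 3 without 5L, among them TOE1, a deadenylase of small nuclear RNAs (-0.73 ± 0.11, adjusted p = 0.000292). TERC, the telomerase RNA, which has an H/ACA domain but is not named as a member, had 27.0, 34.6, 31.5 and 42.8 FPKM in J+V tumors and 38.6, 41.9, 40.4 and 47.0 in control tumors (-0.32 ± 0.13, adjusted p = 0.0673). None of 7 other small noncoding RNAs was called, and RMRP, the RNA of RNase MRP and not a snoRNA, had -0.04 ± 0.25 (adjusted p = 0.920).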

How the data were processed

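The FPKM of 23260 symbols in 16 tumors were made and deposited by the authors, with bcl2fastq, TopHat and Cufflinks on hg19 per the submitters' processing notes, without versions. The sources used here give neither their annotation nor read numbers, so depth is unknown and no counting interval is given. The 13426 symbols that reached 1 FPKM in 4 or more tumors were kept, and log2(FPKM + 0.5) was fitted with limma 3.58.1 in R 4.3.3 (mean-variance trend, 4 groups, mouse as block, block correlation -0.067, 12 residual degrees of freedom). Adjusted p values of genes are Benjamini-Hochberg adjusted over these symbols. Shares and detected members were tested with exact permutation tests. In simulated data for J+V against control, drawn over 13426 genes without a mouse effect, the fit was checked to recover large known changes. The check set no recovery rate for smaller changes and did not cover tumors that share a mouse.

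Named members were the 10 most abundant, up to 6 called in each direction and comparison with the largest change, the called and the 5 most abundant SCARNA, and SNORA12, SNORA16B, SNORA65 and SNORA74A. The other called members of J+V against control are named to complete the count. The members, the 8 lists of other genes and the rule were chosen with earlier results of these data known. Of the lists, telomerase (TERC, and TERT, which was too low to be tested) gave no call against control and 1, TERC lower, in J+V against J. Positions, hosts and sequences are from GENCODE 44 on GRCh37, where 105 members had 1 position. Motif shares were taken over these 105 and windows of equal length. Alternatives were other pseudocounts, filters, scalings, blocks and sample sets, of which a pseudocount of 10 and the counts of hosts and listed genes without 5L were chosen after the data were seen. The sequence, position and host of SNORA68 are not reported here.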

Additional observations from a re-analysis of the deposited data

Results flagged for a closer look

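In 23 of 172 groups of 4 tumors examined (13.4%), over the named members, the share and the detected members, 1 tumor lay far from the other 3. With 4 values chance gives about 1 in 20 such groups, and tumors with a generally high or low level of short RNAs enter many groups, so the flags are not independent.

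In J+V tumors the far values were a high one of SCARNA10 (1533 FPKM), SCARNA27 (13.8), SNORA18 (9874) and SNORA7A (11578), and a low one of SCARNA17 (13.6) and SNORA30 (30.2). The low value of SNORA30, in tumor 33R, lies on the side of its difference from control, and the high value of SNORA7A, also in 33R, does too.

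In J tumors the share of the FPKM sum was high in tumor 26L (12.6%), as were SCARNA13 (742 FPKM), SCARNA4 (5175), SNORA31 (6757) and SNORA74A (743) there. SNORA7A (6798) and SNORA7B (762) were high in 29R, and SNORA30 (146) in 29L. In V tumors, SCARNA15 (121 FPKM), SNORA12 (221) and SNORA61 (4630) had a low one.

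In control tumors the far values were high ones of SCARNA13 (1265 FPKM), SCARNA21 (4675), SCARNA27 (87.8) and SNORA7B (854) in tumor 5R and of SNORA58 (12.99) in 2L, and a low one of SCARNA9L (57.5) in 5L. For SCARNA13, SCARNA21 and SNORA7B the value in 5R lies against the direction of the difference of J+V from control.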

How the results depend on the processing

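Of the 22 calls in J+V against control, 5 held in all 37 alternatives, and none of the 22 changed sign in that comparison under any of them. Of the 41 named members, 13 that were not called changed sign there. The log2 fold change was -0.12 in SCARNA10, -0.10 in SCARNA8, -0.035 in SNORA24, -0.0074 in SNORA61 and -0.030 in SNORA65 with a common sum (TPM). With quantile normalization it was -0.019 in SCARNA21, -0.20 in SCARNA8, -0.15 in SNORA18, -0.14 in SNORA24, -0.19 in SNORA49, -0.18 in SNORA61 and -0.0076 in SNORA8. With a tumor or mouse left out it was -0.043 to 0.28 in SCARNA10, -0.40 to 0.0063 in SCARNA16, -0.20 to 0.43 in SCARNA8, -0.32 to 0.15 in SNORA22, -0.064 to 0.37 in SNORA24, -0.58 to 0.052 in SNORA58, -0.15 to 0.43 in SNORA65 and -0.39 to 0.12 in SNORA74A. The count was 13 without a filter (5021 of all symbols), and 6 to 28 when a tumor or mouse was left out (2843 to 5232 of all symbols). In J+V against J the count was 12 with upper quartile scaling (3630 of all symbols) and 17 with only the groups compared (4632). It was 0 to 14 when a tumor or mouse was left out (1136 to 4440 of all symbols). In J+V against V the count was 5 with a mean of at least 5 FPKM (1474 of all symbols) or upper quartile scaling (1795). It was 10 with a common sum (TPM, 2884 of all symbols) and 6 with quantile normalization (2018). With a tumor or mouse left out it was 1 to 7 (330 to 2431 of all symbols). It was 0 to 2 for V against control and 0 to 1 for the departure from additivity, with 0 to 423 and 0 to 363 of all symbols. With the sum taken without SNORD, the share differed by 0.72 percentage points in J against control and by 1.87 in J+V against V, both of opposite sign to the main values. With a tumor or mouse left out, the share differed by -0.25 to 1.53 percentage points in J+V against control, -1.65 to 0.13 in J against control, -0.068 to 1.77 in V against control and -1.11 to 0.73 in J+V against V. The members detected differed by -0.75 to 1.75 in J against control and by -1 to 1.5 in J+V against J. The cause was not tested, except that fewer tumors lower the precision.

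No paired analysis was possible because the groups share no replicate numbers, only flanks. Depth was unknown. Each group had 2 mice, so a mouse effect and a drug effect cannot be told apart, and the block correlation was negative (-0.067).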
